A study of Mus musculus with 22 samples.

Results

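The genes described here mark B and T lymphocytes in the mouse aorta. They are 9 of the 18193 genes measured: 4 B cell genes (Cd79a, Cd79b, Ms4a1 and Ighm), 4 T cell genes (Cd3e, Cd3d, Cd4 and Cd8a), and Ltb, which both kinds of lymphocyte make. A probe set was taken for a gene if it was annotated to that symbol and to no other, which gave 25 probe sets, and each gene is represented by the brightest of its probe sets on average over all 22 arrays. The study asked what loss of tenascin C, a matrix protein of injured and loaded arteries, changes in the aorta. RNA of male C57BL/6 mice, either wild type (WT) or lacking tenascin C (TNC-KO, here KO), was pooled and put on 8 arrays, 1 array for each combination of genotype, aortic segment and treatment. Treated mice received CaCl2 (0.5 M) around the infrarenal aorta, a model of a stiffened vessel, and a week-long infusion of angiotensin II (AngII) at 1 µg/min/kg, together called CaAngII. A treated pool holds 8 mice and an untreated pool 5. Each segment is a 10 mm length, the suprarenal one reaching upward from the right renal artery and the infrarenal one downward from the left renal artery, so the suprarenal tissue of treated mice had AngII but no CaCl2 on its wall. The other 14 arrays hold smooth muscle cells cultured from the suprarenal aorta of KO mice, with no factor (3 arrays), TNF (10 ng/mL, 3 arrays), tenascin C (10 µg/mL, 4 arrays) or both (4 arrays), and were used here as tissue-free readings of the same probe sets.

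B cells recognise antigen through surface immunoglobulin, whose heavy chain of the first class is encoded by Ighm and which signals through the paired chains Cd79a and Cd79b. T cells use a receptor that signals through the CD3 chains, with Cd4 and Cd8a as co-receptors of the helper and killer lineages. Ltb encodes lymphotoxin beta, a membrane cytokine that builds and maintains lymphoid tissue. In arteries, lymphocytes are known mainly from the adventitia and from clusters and lymph nodes in the surrounding fat. Plasma cells, which descend from B cells, keep making immunoglobulin after they lose Ms4a1 (CD20) from their surface.

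Proximal promoters are shown for members whose readings followed segment and treatment, to show what the group shares in sequence beside its readings. RefSeq promoters (GRCm38.p6, 250 bases before to 50 after the start) were listed for 5 of the 9 members, and the 4 with a match to one of 5 motifs are printed 5′ to 3′ along the gene's strand, with the match in capitals (a match on the other strand appears as its reverse complement, and no 2 matches overlap). The motifs, searched on both strands, were the octamer ATTTGCAT, an EBF motif (TCCC, any 2 bases, GGGA), an NF-kB motif (GGGA, any base, TTTCC), an ETS motif AGGAAGT and a RUNX motif TGTGGTTT. Cd79a lies on the plus strand (chr7:24897247-24897546), as do Cd3d (chr9:44981536-44981835) and Ltb (chr17:35194257-35194556), while Cd3e lies on the minus strand (chr9:45009562-45009861).
Cd79a promoter: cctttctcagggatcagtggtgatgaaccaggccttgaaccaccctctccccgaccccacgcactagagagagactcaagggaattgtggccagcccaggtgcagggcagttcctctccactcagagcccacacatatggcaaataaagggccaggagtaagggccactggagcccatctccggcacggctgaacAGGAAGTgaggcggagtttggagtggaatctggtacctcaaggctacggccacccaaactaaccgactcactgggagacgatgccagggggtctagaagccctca
Cd3d promoter: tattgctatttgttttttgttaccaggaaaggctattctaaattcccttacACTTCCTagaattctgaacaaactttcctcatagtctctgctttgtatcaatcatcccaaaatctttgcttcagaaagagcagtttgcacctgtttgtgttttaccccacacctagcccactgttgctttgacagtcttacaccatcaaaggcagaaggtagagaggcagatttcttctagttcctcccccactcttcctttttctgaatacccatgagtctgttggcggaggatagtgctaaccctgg
Cd3e promoter: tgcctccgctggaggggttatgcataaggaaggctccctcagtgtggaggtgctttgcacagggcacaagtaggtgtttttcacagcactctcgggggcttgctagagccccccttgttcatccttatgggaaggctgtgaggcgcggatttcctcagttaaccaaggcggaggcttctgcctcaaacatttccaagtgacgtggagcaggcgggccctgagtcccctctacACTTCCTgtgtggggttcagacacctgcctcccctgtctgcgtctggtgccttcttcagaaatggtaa
Ltb promoter: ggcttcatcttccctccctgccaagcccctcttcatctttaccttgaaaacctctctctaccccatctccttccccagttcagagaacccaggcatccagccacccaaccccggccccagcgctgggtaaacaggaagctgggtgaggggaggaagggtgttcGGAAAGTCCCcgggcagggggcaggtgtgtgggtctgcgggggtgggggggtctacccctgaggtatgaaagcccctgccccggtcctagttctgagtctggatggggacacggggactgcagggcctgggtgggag
The ETS letters, which a family of transcription factors active in lymphocytes can bind, were found in 3 of the 5 promoters (Cd79a, Cd3d and Cd3e), against 9.35% of 32851 mouse promoters of the same length. The NF-kB letters were found in the Ltb promoter, against 0.411% of promoters. The octamer, EBF and RUNX letters were in none of the 5, against 1.74%, 0.904% and 1.78% of promoters. The fifth promoter, that of Cd8a, held none of the motifs.

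The targeted gene read as labelled: Tnc intensity was 1805 to 2699 in the 4 WT pools and 257.5 to 488.7 in the 4 KO pools. Values are intensities on a linear scale, each array scaled by the authors to a common mean, and the median probe set read 119.3 to 134.5 in the pools. Ptprc (CD45), carried by all white blood cells, read 1344 to 7548 in the pools and 5.25 to 24.6 in the cultured cells. In the cultured cells Cd79a read 1.27 to 9.21, Cd79b 2.82 to 31.9, Ms4a1 7.85 to 42.0, Ighm 4.93 to 12.9, Cd3e 2.50 to 9.42, Cd3d 2.07 to 25.4 and Ltb 2.03 to 57.0, so these readings give the level of each probe set without lymphocytes. The smooth muscle markers Acta2 and Myh11 read 22726 to 32462 and 8638 to 18978 in the pools. Adrenal genes were high in 2 pools, with Hsd3b1 at 2613 in the untreated KO infrarenal pool and 1425 in the treated WT suprarenal pool against at most 181.9 in the other 6, and the members are given without these pools as well.

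Of the B cell genes, Ms4a1, Cd79b and Cd79a read highest in the untreated suprarenal aorta and lowest in the treated suprarenal and untreated infrarenal aorta, while Ighm, given further on, did not. Ms4a1 (CD20) read 1697 in the WT and 2395 in the KO untreated suprarenal pool, and 130.8 and 170.3 in the treated suprarenal pools. In the infrarenal aorta it read 352.0 (WT) and 333.0 (KO) without treatment and 1064 and 479.0 with it. The untreated suprarenal and treated infrarenal pools thus lay above the other 4, with no overlap. Cd79b, a signalling chain of the B cell receptor, read 867.0 and 1269 in the untreated suprarenal pools (WT first, then KO), 98.6 and 161.2 in the treated suprarenal pools, 195.0 and 193.2 in the untreated infrarenal pools, and 557.9 and 392.4 in the treated infrarenal pools. Its partner Cd79a had the same order of settings at a dimmer level. Cd79a values were 167.1 and 211.5, then 5.15 and 51.8, then 45.8 and 49.1, then 121.8 and 84.7, in the same sequence of pools. The treated WT suprarenal pool, at 5.15, fell within the range of the cultured cells for this probe set.

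The CD3 genes followed the same course. Cd3d, a chain of the T cell receptor complex, read 759.9 and 1096 in the untreated suprarenal pools, 99.4 and 193.9 in the treated suprarenal pools, 128.4 and 134.4 in the untreated infrarenal pools, and 804.8 and 612.4 in the treated infrarenal pools. Cd3e, the chain most used to identify T cells, read 171.5 and 156.3, then 27.2 and 25.2, then 18.9 and 25.3, then 89.2 and 99.98. For both, the lowest of the 4 high pools stood well above the highest of the 4 low pools. Ltb read 1635 and 2077, then 152.9 and 380.9, then 124.0 and 202.4, then 1002 and 903.5. Of the 8 members tested it had the largest fitted difference between the treatment effects of the 2 segments.

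The other 3 members did not share this order. Cd4, the co-receptor of helper T cells, read only 9.94 to 31.6 over the 8 pools against 2.84 to 9.72 in the cultured cells. Its values were 25.1 and 13.5, then 13.6 and 13.8, then 9.94 and 10.4, then 31.6 and 19.9. The untreated and treated suprarenal pools overlapped. The treated infrarenal pools lay above the untreated infrarenal and the treated suprarenal pools, and the untreated suprarenal pools lay above the untreated infrarenal pools. Cd4 was too dim to enter the tests. For Cd8a, the co-receptor of killer T cells, the brightest probe set read 164.6 and 163.9, then 125.1 and 87.7, then 146.0 and 164.2, then 166.5 and 155.3. In the cultured cells it read 29.7 to 144.7, so the pools read at most slightly above the brightest of those arrays. A second Cd8a probe set (1451673_at) read 317.9 and 401.4, then 55.4 and 72.1, then 49.7 and 84.5, then 217.7 and 188.3, against 1.41 to 27.6 in the cells. That probe set had the order of the CD3 genes, and so did the other 3 that were not chosen. Ighm read 3278 and 6155, then 3207 and 10904, then 2167 and 1119, then 5070 and 7369. Its untreated infrarenal pools were the 2 lowest and its treated suprarenal KO pool was the highest.

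**Figure D1:**
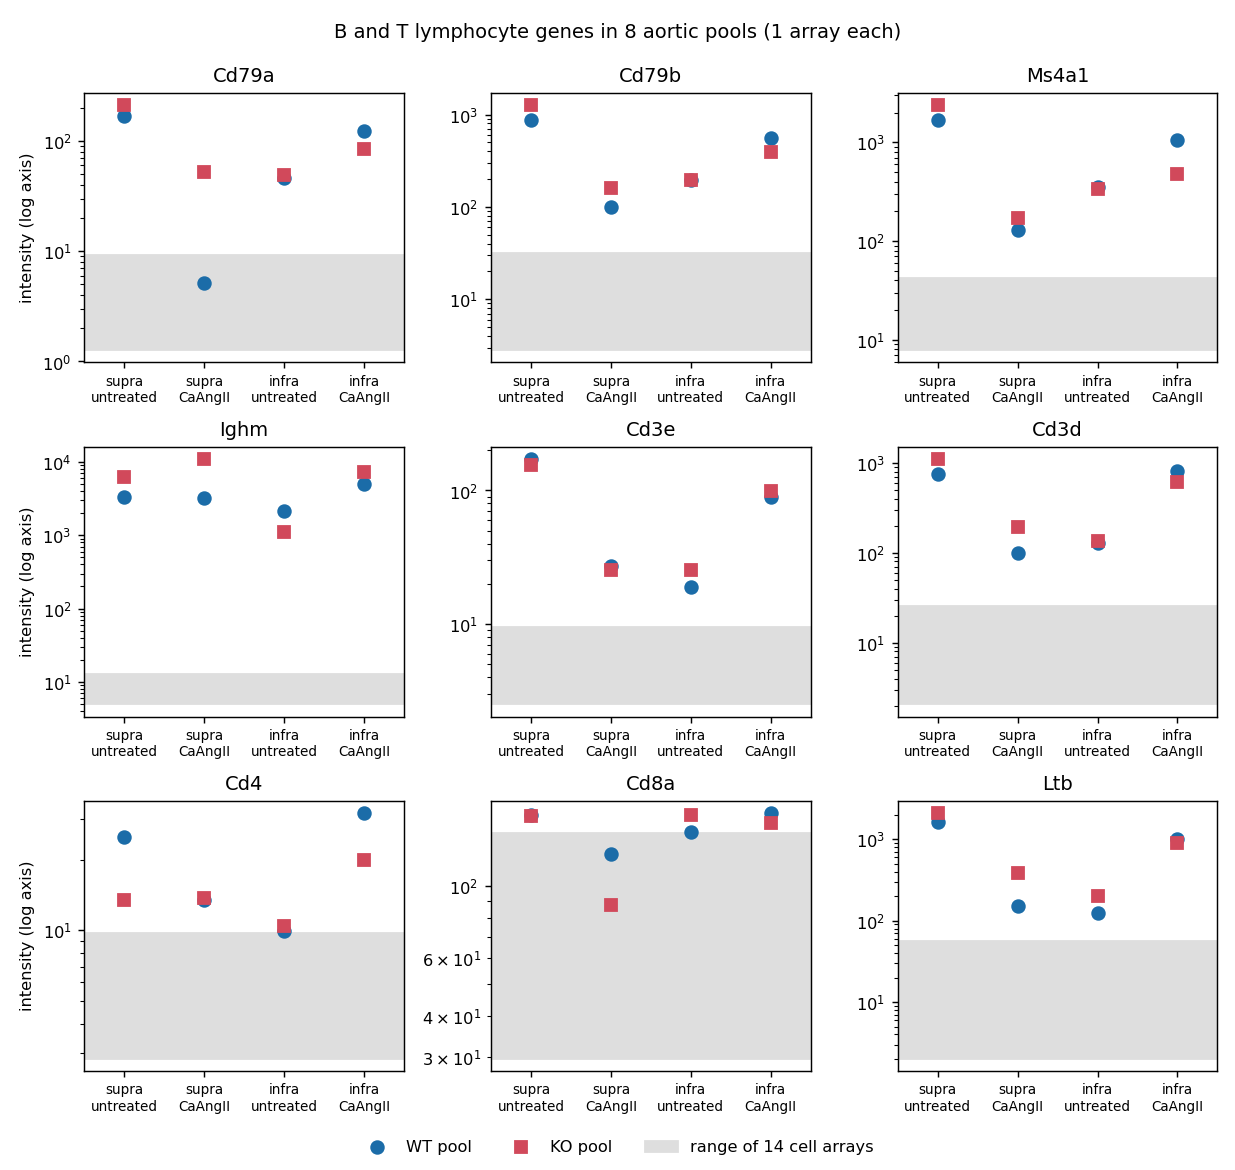
Intensity (log axis) of the 9 genes in each of the 8 aortic pools, with WT pools as circles, KO pools as squares and the range of the 14 arrays of cultured cells as a grey band. In Cd79a, Cd79b, Ms4a1, Cd3e, Cd3d and Ltb the untreated suprarenal and treated infrarenal pools lie above the other 4, while Ighm and Cd4 overlap and Cd8a lies near or inside the grey band.

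In 6 of the 9 genes the untreated suprarenal and treated infrarenal pools all lay above the other 4 pools, against 3.3% of the 12684 genes that reached the 50th percentile of probe sets on 1 pool or more. Cd79a and Cd3e reached that percentile only in pools of the settings where they were high. Of the 25 probe sets the order held for 12, among them both for Ms4a1 and 4 of 5 for Cd8a, and for 1 of 11 for Ighm. In bulk tissue, fewer cells of a type and less RNA per cell cannot be told apart.

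Without treatment, lymphocyte genes were lower below the kidneys than above them. In all, 5 members fell from the suprarenal to the infrarenal aorta in a limma fit over the 8 pools, with segment, treatment, their interaction and genotype as terms. The WT and KO pools of a setting stood in for replicates (2 pools against 2, 3 residual degrees of freedom), and p-values were adjusted by Benjamini-Hochberg over 14083 genes. Over all genes 8.58% fell, and among the 8 members tested 5 did. Ltb fell by 3.54 on the log2 scale (standard error, SE, 0.35, limma adjusted p = 0.0101), Cd3e fell by 2.90 (SE 0.17, adjusted p = 0.00929) and Cd3d fell by 2.80 (SE 0.33, adjusted p = 0.0122). Of the B cell genes, Ms4a1 fell by 2.56 (SE 0.42, adjusted p = 0.0232) and Cd79b by 2.43 (SE 0.32, adjusted p = 0.0144). Cd79a differed by -1.99 (SE 0.93, limma adjusted p = 0.222) and Ighm by -1.53 (SE 0.62, adjusted p = 0.17). Cd8a differed by -0.09 (SE 0.19, limma adjusted p = 0.793), and with the probe set that was brightest over the pools it joined the genes that fell. With the mean of all probe sets Cd8a and Ighm both passed (8.33% of genes passed in either direction). As pairs of single pools, 6 of 8 genes counted were at least 2-fold lower infrarenally in WT, beside 7.58% of all genes, and 7 of 8 in KO, beside 9.78%. Cd79a and Cd3e reached the 50th percentile in the suprarenal pool alone, so they could be counted only as lower infrarenally. The calls rest on single untreated pools: without the KO suprarenal, the WT infrarenal or the KO infrarenal untreated pool, 0 members passed (1, 0 and 8 of 14083 genes passed in those fits, and adjusted p of the 5 genes was 0.0504 to 0.138), while their log2 differences stayed between -3.68 and -2.17.

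Below the kidneys, part of the genes of each lineage rose with treatment. With CaAngII, 4 of the 8 members tested rose in the infrarenal aorta, beside 14.8% of all genes. Ltb rose by 2.59 on the log2 scale (SE 0.35, limma adjusted p = 0.0081), Cd3d by 2.42 (SE 0.33, adjusted p = 0.00839) and Cd3e by 2.11 (SE 0.17, adjusted p = 0.00291). Cd79b rose by 1.27 (SE 0.32, limma adjusted p = 0.0393). Of the T cell genes 2 of 3 tested thus passed, and of the B cell genes 1 of 4. These counts depend on the probe set chosen. With the probe set brightest over the pools Cd8a passed as well (27.1% of genes passed in either direction). With the mean of all probe sets Cd8a and Ighm both passed (20% of genes). Ms4a1 differed by 1.06 (SE 0.42, limma adjusted p = 0.122), with a ratio of 3.02 in WT and 1.44 in KO. Cd79a differed by 1.10 (SE 0.93, limma adjusted p = 0.419), Ighm by 1.97 (SE 0.62, adjusted p = 0.0713) and Cd8a by 0.05 (SE 0.19, adjusted p = 0.847). In single pairs of pools, 5 of 6 genes counted were at least 2-fold higher in WT, beside 10.6% of genes, and 4 of 6 in KO, beside 11.1%. Cd79a, Cd3e and Cd4 were too dim in both infrarenal settings to be counted. Cd79b did not pass with no filter (adjusted p = 0.0861) or without the untreated WT or KO suprarenal pool, the untreated WT or KO infrarenal pool or the treated WT infrarenal pool (limma adjusted p of 0.0587 to 0.185), and without the last its log2 difference was 0.81. Without the treated KO infrarenal pool Ms4a1 joined the genes that rose. Without the untreated WT infrarenal pool Ltb and Cd79b no longer passed and Ighm did, and without the untreated KO infrarenal pool, in which adrenal genes were high, Cd3e was the single member that passed.

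Above the kidneys, treated pools read below untreated pools in both genotypes for 7 of the 9 members, the exceptions being Ighm and Cd4 in KO, and no gene of any kind passed the test. Of 14083 genes, 0% passed at a limma adjusted p under 0.05 and 11% had an unadjusted p under 0.05, or 4.72% counting lower values alone. Among the 8 members tested, 7 had an unadjusted p under 0.05, all lower with treatment. Ms4a1 differed by -3.76 on the log2 scale (SE 0.42, limma adjusted p = 0.0759), 13.0-fold lower in WT and 14.1-fold lower in KO. Cd79a differed by -3.52 (SE 0.93, limma adjusted p = 0.285) and Cd79b by -3.06 (SE 0.32, adjusted p = 0.0702). Ltb differed by -2.93 (SE 0.35, limma adjusted p = 0.0759), Cd3d by -2.72 (SE 0.33, adjusted p = 0.0759) and Cd3e by -2.65 (SE 0.17, adjusted p = 0.0504). Cd8a differed by -0.65 (SE 0.19, limma adjusted p = 0.316), and Ighm by 0.40 (SE 0.62, adjusted p = 0.884). The differences of Ms4a1, Cd79b, Ltb, Cd3d and Cd3e exceeded in size every difference of a member that passed for the infrarenal treatment, with the same SE for each gene. In single pairs of pools 6 of 8 genes counted were at least 2-fold lower in WT, beside 2.39% of genes, and 6 of 8 in KO, beside 1.55%. Cd79a and Cd3e, and in WT Cd79b and Cd3d, reached the 50th percentile in the untreated pool alone. They could thus be counted only as lower with treatment. Centring each array on its median brought 57 genes past the threshold, among them Cd79b, Ms4a1, Cd3e, Cd3d and Ltb. Without the treated WT pool, in which adrenal genes were high, Cd3e alone of the members passed (49 genes in all) and the 5 log2 differences lay between -3.44 and -2.27.

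The difference between those 2 treatment effects was tested directly, as the interaction of segment and treatment. It was above 0 and passed in 4.76% of all genes and in 5 of the 8 members tested. The difference was 5.52 for Ltb (SE 0.49, limma adjusted p = 0.0146), 5.13 for Cd3d (SE 0.47, adjusted p = 0.0148) and 4.76 for Cd3e (SE 0.24, adjusted p = 0.0102). For the B cell genes it was 4.82 in Ms4a1 (SE 0.59, limma adjusted p = 0.0194) and 4.33 in Cd79b (SE 0.45, adjusted p = 0.0166). Cd79a was at 4.62 (SE 1.31, limma adjusted p = 0.105), a value that includes the treated WT suprarenal reading within the range of the cultured cells and that was 2.94 without that pool (2.94 to 6.30 with any 1 pool left out). Ighm was at 1.58 (SE 0.88, limma adjusted p = 0.329) and Cd8a at 0.70 (SE 0.26, adjusted p = 0.178). With the probe set brightest over the pools Cd8a passed (7.69% of genes passed in either direction). With the mean of all probe sets Cd8a and Ighm both passed (4.54% of genes). The calls depend on which genes are tested: with no filter on dim genes 0 genes passed, and the adjusted p of these 5 was 0.0538 to 0.0666. They also depend on single pools, and with any 1 pool left out fewer genes of any kind passed. Without the untreated WT suprarenal, untreated KO suprarenal, untreated WT infrarenal or treated WT infrarenal pool, 0 members passed (adjusted p of the 5 genes 0.0506 to 0.0817), without the treated WT suprarenal pool 3 passed, and without the untreated KO infrarenal pool 1 passed. Among treated pools the infrarenal pool was the higher one by at least 2-fold in 4 of 6 members counted in WT, beside 9.51% of genes, and in 4 of 6 in KO, beside 6.79%. In WT, Cd79b and Cd3d reached the 50th percentile in the infrarenal pool alone, so they could be counted only as higher there. The 5 fitted log2 differences themselves stayed between 3.86 and 6.03 with any 1 pool left out.

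**Figure D2:**
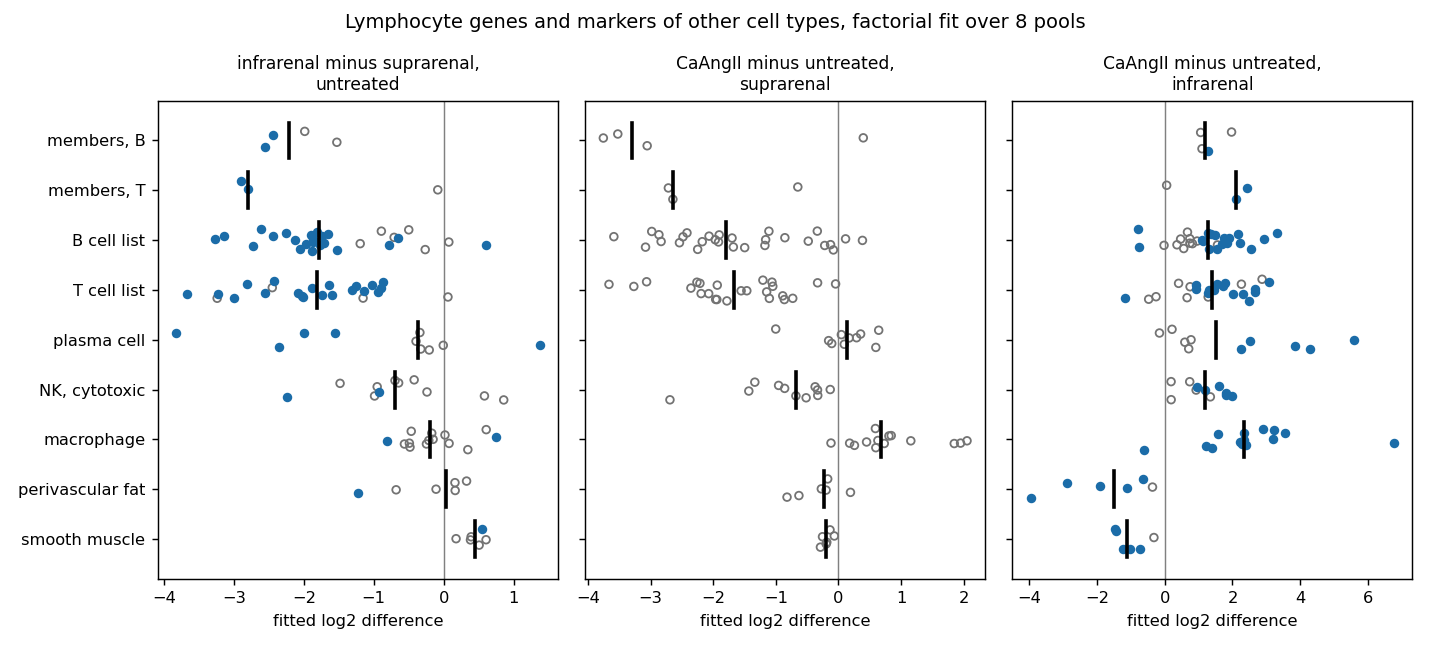
Fitted log2 differences (x axis) of single genes for the segment difference without treatment and for the treatment in each segment, with filled points at a limma adjusted p under 0.05, open points above it and a bar at the median of each list. B cell and T cell genes lie mostly left of 0 in the first 2 panels and right of 0 in the third, while the macrophage medians are -0.19, 0.68 and 2.33.

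B cell genes were set against T cell genes in each pool as the mean log2 intensity of the 4 B cell genes minus that of the 4 T cell genes, a description with no test. This difference was 2.64 (WT) and 3.34 (KO) in the untreated suprarenal pools, 1.39 and 2.84 in the treated suprarenal pools, 2.73 and 2.31 in the untreated infrarenal pools, and 2.48 and 2.32 in the treated infrarenal pools. Averaged over the genotypes, treatment moved it by -0.88 above the kidneys and by -0.12 below them, and the segment difference without treatment was -0.47. The pooled SD between the WT and KO pools of a setting was 0.59. It is the spread of single pools, and a change from 1 pool to another spreads more widely. The suprarenal change was -1.25 in WT and -0.50 in KO, so the WT pair alone exceeded that SD, and its treated pool is the one with Cd79a at 5.15, within the range of the cultured cells. With the probe sets brightest over the 8 pools the mean suprarenal change was -0.41. Ighm and Cd8a, whose chosen probe sets did not follow the other genes, weigh on these means. With Cd79a, Cd79b and Ms4a1 against Cd3e and Cd3d, a choice made after the values were seen, the differences were 0.80 and 1.06, then -0.36 and 0.69, then 1.57 and 1.33, then 0.64 and 0.02, in the same sequence of pools. On that scale treatment moved the difference by -0.93 in WT and -1.31 in KO below the kidneys, and by -1.15 in WT and -0.37 in KO above them. The pooled SD was 0.45, again that of single pools. Over all 8 genes the infrarenal changes were -0.25 in WT and 0.01 in KO, so the infrarenal change of these 5 genes was not seen over the full set. Among single genes the infrarenal ratios of treated over untreated were 3.02 (WT) and 1.44 (KO) for Ms4a1, 2.34 and 6.59 for Ighm, and 6.27 and 4.56 for Cd3d. The segment difference without treatment was 0.78 and 0.27, opposite in sign to that over all 8 genes in KO and as a mean.

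**Figure D3:**
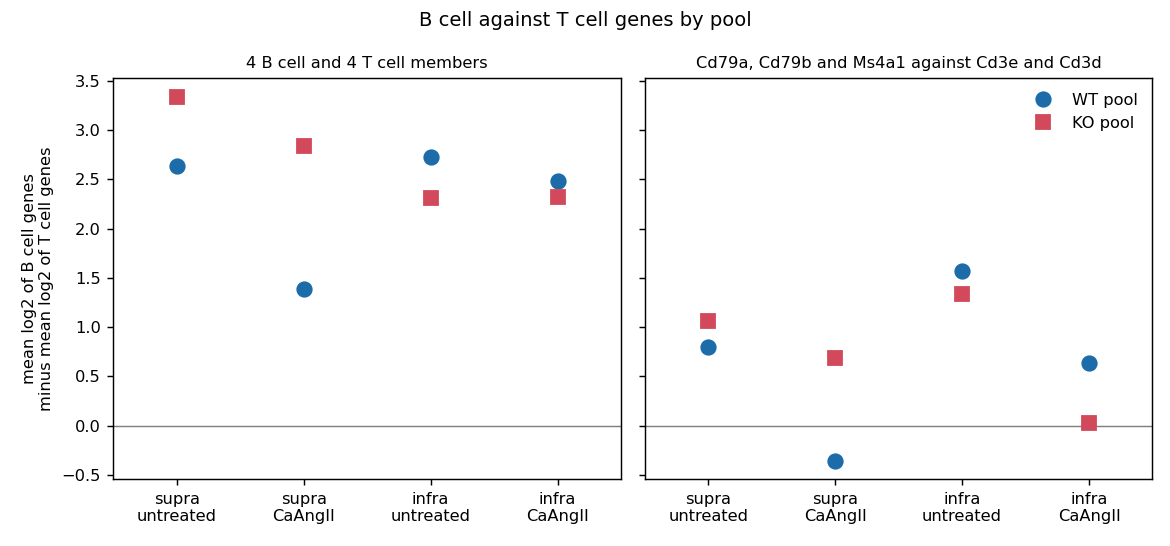
Mean log2 intensity of the B cell genes minus that of the T cell genes (y axis) in each pool, over all 8 genes at left and over Cd79a, Cd79b, Ms4a1, Cd3e and Cd3d at right. At right the treated infrarenal pools (0.64 and 0.02) lie below the untreated infrarenal pools (1.57 and 1.33), while at left they differ little.

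No member passed the test for genotype. Over the whole fit 0.0071% of genes passed for genotype, and 0 of 8 members did, with an unadjusted p under 0.05 in 4.07% of genes. The fitted KO minus WT values ran from -0.11 (Cd8a) to 0.81 (Cd79a), and Ltb, at 0.55 (SE 0.25, limma adjusted p = 0.981), had the lowest unadjusted p, 0.0713. Pairs of single pools carry no test. In the treated suprarenal pair Ighm was 3.40-fold and Ltb 2.49-fold higher in KO, 2 of 6 genes counted beside 2.52% of all genes. Among treated infrarenal pools Ms4a1 was 2.22-fold lower in KO, 1 of 6 genes beside 0.599%. In the cultured cells, 4 members (Cd79b, Ms4a1, Cd8a and Ltb) were bright enough to be tested in limma, and 0 passed in any of the 4 contrasts, beside 34.6% of genes for TNF alone, 31.8% for tenascin C alone, 22.1% for TNF with tenascin C present and 28.2% for tenascin C with TNF present. Unadjusted p was under 0.05 for Cd8a with tenascin C alone (0.0212) and for Cd79b with tenascin C under TNF (0.0365).

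Immunoglobulin genes shared the infrarenal part of this pattern. The 11 Ighm probe sets differ widely, and the files do not say which transcripts of the heavy chain locus each one reads. One (1425247_a_at) read 312.0 and 322.1 in the untreated suprarenal pools, 1071 and 508.8 in the treated suprarenal pools, 138.6 and 201.7 in the untreated infrarenal pools, and 4370 and 7807 in the treated infrarenal pools. Another (1425385_a_at) read 1648 and 3554, then 727.4 and 733.1, then 65.4 and 175.7, then 7544 and 6468, the order of the 6 members given above. In 9 of the 11, both infrarenal pools with treatment were at least 2-fold above their untreated pool, by up to 115-fold. Over all genes, 10.6% in WT and 11.1% in KO were at least 2-fold higher in that pair. The 115-fold ratio is that of 1425385_a_at in WT, whose untreated reading (65.4) was near its highest reading in the cultured cells (56.8). Another of the 9, 1427869_at, read 12.2 and 3.76 untreated, within its range in the cells (2.09 to 21.0). Genes of plasma cells were also high in the treated infrarenal aorta. Jchain, which joins secreted immunoglobulin units, read 735.5 and 604.4 there without treatment and 8595 and 10553 with it (log2 rise 3.84, limma adjusted p = 0.00463). Igha, the heavy chain of IgA, read 537.2 and 1343 without treatment and 15375 and 17905 with it (log2 rise 4.29, limma adjusted p = 0.00264). Above the kidneys Jchain read 1923 and 3714 without treatment against 1492 and 3852 with it, and Igha 3578 and 5228 against 4638 and 6023. Mzb1, a chaperone of antibody-secreting cells, read 377.3 and 533.0 there without treatment against 161.0 and 311.5 with it (limma adjusted p = 0.209). Whether these genes differ from Ms4a1 in their suprarenal change was not tested. Of 10 plasma cell and immunoglobulin genes tested, 5 rose with treatment infrarenally and 0 passed suprarenally (median log2 0.13, with 1 lower and 1 higher at an unadjusted p under 0.05). For the interaction 4 passed upward (Jchain, Igha, Mzb1 and Iglv1, median over the list 1.29). Between untreated segments 4 were lower and 1, Sdc1, was higher infrarenally. Epithelial cells also make Sdc1, and it read 3101 to 6358 in the cultured smooth muscle cells against 754.4 to 3806 in the pools.

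**Figure D4:**
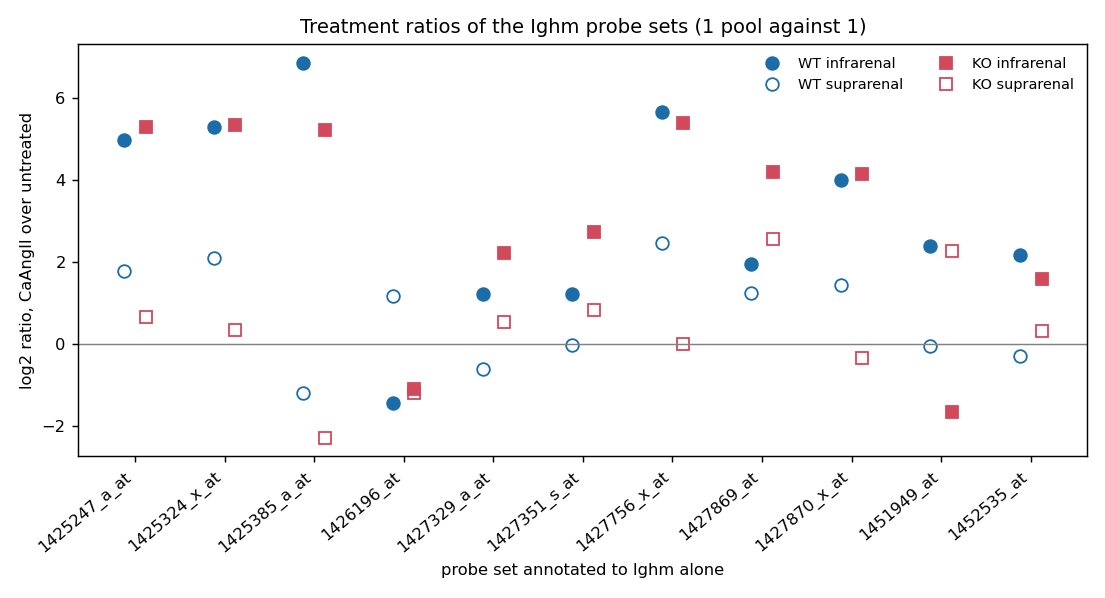
Log2 ratio of treated over untreated intensity (y axis) for each of the 11 probe sets annotated to Ighm alone, with WT as circles, KO as squares, infrarenal pairs filled and suprarenal pairs open. In 9 of 11 probe sets both infrarenal ratios exceed 1, whereas the suprarenal ratios lie on both sides of 0.

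Other genes of both lineages moved with the members. Of 28 further B cell genes tested, 21 fell and 1 rose from the suprarenal to the infrarenal aorta without treatment (median log2 -1.79, against -0.02 over all genes). With CaAngII 16 rose and 2, Ebf1 and Pax5, fell infrarenally (median 1.29), 0 passed suprarenally (median -1.80, 22 lower at an unadjusted p under 0.05), and 22 passed upward for the interaction (median 2.96). The largest infrarenal rises were those of Cd72 (3.33), Blnk (2.94) and Ly86 (2.54), and Ly86 differed by 0.11 suprarenally. Cr2, Fcer2a, Blk, Vpreb3, Tnfrsf13c, Cxcr5 and Siglecg were among those that did not pass infrarenally (limma adjusted p of 0.0624 to 0.196). The part of macrophages in the values of this list was not tested. Cd22, an inhibitory receptor of B cells, read 775.3 and 1165 in the untreated suprarenal pools, 144.6 and 199.8 in the treated ones, 192.1 and 206.9 in the untreated infrarenal pools, and 859.7 and 641.7 in the treated ones. Ebf1, a transcription factor of early B cells that other cell types also express, read 1736 to 3146 throughout and fell by 0.75 on the log2 scale with treatment infrarenally (limma adjusted p = 0.0157). Of 24 T cell genes bright enough to be tested, 20 fell between the untreated segments (median -1.82), 15 rose and 1, Gata3, a transcription factor also made by sympathetic neurons, fell with treatment infrarenally (median 1.38), 0 passed suprarenally (median -1.67, 20 lower at an unadjusted p under 0.05), and 19 passed upward for the interaction (median 3.25). Gata3 read 621 to 1305 in the cultured smooth muscle cells, above its 82.3 to 456.1 in the pools. Il7r, the receptor for a survival cytokine of resting T cells, read 628.1 and 864.9, then 143.4 and 256.1, then 171.0 and 190.9, then 1481 and 1568, in the sequence of pools used above. The order of pools held for 21 of 28 B cell genes and 22 of 31 T cell genes measured. Of these, 21 and 19 reached the 50th percentile on a pool, the filter behind the 3.3% given above. In the treated infrarenal pair the median log2 ratio of KO over WT was -0.41 for the B cell genes, -0.28 for the T cell genes and -0.25 for the NK and cytotoxic genes, against 0.02 over all genes, with no test.

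The genes whose profile over the pools was nearest to the mean of the B cell members, by the root mean square difference of centred log2 values among 12684 genes, were Cd5 (0.29), Spib (0.33), Cd22 (0.35) and Cd28 (0.36), followed by Acap1, Btla, Trbv1, Fcmr, Ptprcap and Hcst (0.41). For the T cell members, whose mean is flattened by Cd4 and Cd8a, they were Ubd (0.12), H2-DMb2 (0.14), Gimap7, Gm30054, Ctsw, Tbc1d10c, Nup210, Gpr18, Nlrc3 and Prkcq (0.23). Of the 4 nearest to the B cell mean, Spib and Cd22 are B cell genes and Cd5 and Cd28 are surface receptors of T cells. The B cell mean includes Ighm, which did not follow the other B cell members. In the cultured cells Ubd read up to 5422 and Spib up to 1141, so the readings of these 2 genes are not confined to lymphocytes.

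Genes of the lymphotoxin pathway and of lymphoid tissue moved with Ltb in part. Of 12 tested, 4 fell between the untreated segments, 8 rose with treatment infrarenally, 0 passed suprarenally (5 lower and 1 higher at an unadjusted p under 0.05) and 7 passed upward for the interaction. Glycam1, a mucin of the high endothelial venules through which lymphocytes enter lymph nodes, read 2707 and 3182 in the untreated suprarenal pools, 154.9 and 112.5 in the treated suprarenal pools, 4.92 and 249.2 in the untreated infrarenal pools, and 915.8 and 625.7 in the treated infrarenal pools. It read 2.09 to 10.7 in the cultured cells. Its fitted segment difference was -6.39 (SE 1.61, limma adjusted p = 0.0611) and its interaction 8.91 (limma adjusted p = 0.0839), so neither passed. Whether the amount of lymph node tissue in the dissected samples had a part in the members' values was not tested. Cxcl13, the chemokine that draws B cells into follicles, read 1635 and 2278 in the untreated and 1726 and 1927 in the treated suprarenal pools, and 566.6 and 441.0 in the untreated and 1695 and 1618 in the treated infrarenal pools, so it lacked the low treated suprarenal values of Ms4a1. Its infrarenal rise was 1.73 (SE 0.22, limma adjusted p = 0.00695). In the cultured cells Cxcl13 read 101.5 to 823.3, a range that holds both untreated infrarenal readings.

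Markers of other cells in the samples are given beside these results. Summed over 14 macrophage genes, intensity was 38719 and 34804 in the untreated and 44081 and 48635 in the treated suprarenal pools, and 31912 and 27110 in the untreated and 110057 and 112775 in the treated infrarenal pools. In the fit 13 of the 14 rose and 1 fell with treatment infrarenally, 9 passed upward and 1 downward for the interaction, and 1 rose and 1 fell between the untreated segments. Macrophage genes thus rose with the lymphocyte genes below the kidneys. Above them 10 of 14 read higher with treatment at an unadjusted p under 0.05 (0 passed), beside 880 of 14083 genes. Of 11 NK and cytotoxic genes tested, 2 fell between the untreated segments, 6 rose with treatment infrarenally and 7 passed upward for the interaction. Of 10 dendritic cell genes the counts were 3, 8 and 8. Perivascular fat genes summed to 97463 and 84128 in the untreated and 81205 and 75414 in the treated suprarenal pools, and to 86809 and 87482 in the untreated and 46427 and 57340 in the treated infrarenal pools. Of 6, 5 fell with treatment infrarenally, as did 5 of 6 smooth muscle genes, beside 12.4% of all genes. Of 5 genes of proliferation and germinal centres tested, 3 rose infrarenally and 0 passed for the interaction, and of 5 lymphatic endothelial genes 2 rose and 0 passed. Of 2 erythroid genes, both rose between the untreated segments and 1, Alas2, passed downward for the interaction. Sympathetic genes were higher above the kidneys in all pools, with Th at 6514 to 9047 there and 599.5 to 1175 below. Of the 5 adrenal and sympathetic genes tested 2 fell between the untreated segments and 1 with treatment infrarenally. The part of these cells in the members' values was not tested.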

How the data were processed

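The authors deposited intensity values on a linear scale for 45101 probe sets of an Affymetrix array of the whole mouse genome, made with Affymetrix Expression Console per the submitters' processing notes; neither its version nor its algorithm is given in the sources used here. On each of the 22 deposited arrays the probe sets average 499.8 to 499.9 when only their middle 96% is kept, so arrays had been scaled to one mean. Gene symbols came from GEO's platform annotation. Of the probe sets, 64 controls, 932 with several symbols and 9160 with none were left out, and 34945 remained for 18193 genes.

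Intensities were used as deposited, as log2 with no pseudocount. Genes with a mean log2 value over the 8 pools at or above the 30th percentile of probe sets (14083) entered a limma fit (limma 3.58.1 under R 4.3.3) that left 3 residual degrees of freedom, and were called at a Benjamini-Hochberg adjusted p under 0.05. The fit has no true replicates: its error is what the WT and KO pools of a setting differ by after a common genotype term, so its p-values measure that spread and not the spread between mice. Cells were fitted as 4 groups (15534 genes, 10 residual degrees of freedom). Counts in pairs of pools are at least 2-fold among genes at or above the 50th percentile on either array. Depth has no meaning for arrays, and precision is limited by their number. The scripts were tested on simulated data.

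The 9 members and the 13 marker lists, of which 154 of 178 genes were measured, were chosen with earlier results of these data known, and the lists' counts are not independent support. The rule for named genes takes the members, Tnc, Ptprc, the brightest 6 of each list or all of a list whose values stand beside a result, and the 10 nearest profiles. For the cells, the study's text gives independent cultures, and arrays with the same replicate number did not deviate together (19 pairs, correlations of -0.016 to 0.057), so no pairing was used. Alternatives were quantile normalization, median centring, log2(value + 32), other choices of probe set and filter, no genotype term, a variance trend, a random block for pools of the same mice, the replicate number as a block in the cells, and leaving out each array.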

Additional observations from a re-analysis of the deposited data

Results flagged for a closer look

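The treatment effects of the 2 segments differed, by the tested interaction, for 5 of the 8 members tested, beside 4.76% of all genes that passed upward. The log2 difference was 4.33 for Cd79b, 4.82 for Ms4a1, 4.76 for Cd3e, 5.13 for Cd3d and 5.52 for Ltb. In each of these genes both treated infrarenal pools read above their untreated pools and both treated suprarenal pools below theirs. With no filter on dim genes 0 genes passed, and the calls also depended on single pools, as given above. In the cultured cells given tenascin C and TNF, 1 of 4 arrays read Cd3e at 3.84, while the group reached 7.11 with a median of 6.68. All these readings are at the level the probe set gives without lymphocytes. The check was made 18 times, for 9 genes in each of 2 groups of 4 arrays, and chance flags about 1 in 20, so about 1 such array would be found by chance.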

How the results depend on the processing

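Directions of the members' log2 differences held under every alternative except those named here, and the calls depended on the processing. The count of members called for the suprarenal treatment, 0, became 1 with quantile normalization, 5 with median centring, 5 with log2(value + 32), 4 with a filter at the 50th percentile, 4 with no genotype term, 5 with a variance trend and 1 with pools of the same mice as a random block. The shares of all genes called in those settings were 0.149%, 0.405%, 0.645%, 0.915%, 0.582%, 1.46% and 0.0426%, in the same order. With no filter, 0 members and 0 genes of any kind passed for the interaction. With each pool left out in turn, members called ranged from 0 to 6 for the untreated segment difference, 0 to 1 for the suprarenal treatment, 1 to 5 for the infrarenal treatment and 0 to 6 for the interaction. Apart from the suprarenal treatment, those fits also called fewer genes of any kind than the full fit. A fit without 1 pool keeps 2 residual degrees of freedom, and a setting with 1 pool left is assumed to vary like the others. Without the untreated WT infrarenal pool, Cd8a turned from -0.09 to 0.10 for the segment (range -0.27 to 0.10 over the pools left out) and from 0.05 to -0.13 for the infrarenal treatment (range -0.13 to 0.24). Without the treated KO suprarenal pool, Ighm turned from 0.40 to -0.40 for the suprarenal treatment (range -0.40 to 1.20). In the cells 1 member, Cd8a, passed for tenascin C alone with log2(value + 32), and 0 to 1 members passed with an array left out for TNF alone, for tenascin C alone and for tenascin C with TNF present. With the replicate number as a block in the cells, 0 members passed in each of the 4 contrasts, and the block changed no member's call. In pairs of pools with no filter, 8 members were at least 2-fold higher with treatment in WT infrarenally and 7 higher infrarenally in treated WT. Those counts include dim genes such as Cd4 (31.6 with and 9.94 without treatment in WT infrarenally). With the mean of all probe sets, 1 member was 2-fold higher in KO in the treated suprarenal pair, and with median centring 1 was 2-fold lower in KO in the untreated infrarenal pair. The shares of all genes past 2-fold in these settings are not given here, so these counts have no baseline. The difference of B and T cell genes moved with infrarenal treatment by 0.24 with log2(value + 32) and by -1.12 with Cd79a, Cd79b and Ms4a1 against Cd3e and Cd3d, an alternative chosen after seeing the data. Between the untreated segments it was 0.13 with the probe sets brightest over the 8 pools and 0.52 with those 5 genes. The causes of these changes were not tested.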
